A study of Rattus norvegicus with 16 samples.

Results

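The voltage-gated sodium channels of the rat dorsal root ganglion (DRG) were followed through 9 genes. Of these, 7 encode pore-forming alpha subunits (Scn1a, Scn3a, Scn7a, Scn8a, Scn9a, Scn10a and Scn11a) and 2 encode auxiliary beta subunits (Scn3b and Scn4b). A probe set is a group of short probes that together read out a transcript on the array, and all probe sets with one of these symbols as their single gene in the platform annotation were taken. This gave 9 genes of 14217 named singly on the array and 10 probe sets of 31042, with 2 for Scn3b and 1 for every other gene, and 0 further probe sets that named a member together with another gene.

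Messenger RNA of L4/L5 DRG of Sprague-Dawley rats was measured on 16 Affymetrix arrays, 7 days after spared nerve injury (SNI) or sham surgery. In SNI the common peroneal and tibial branches of the sciatic nerve are ligated and cut while the sural branch is spared, so a ganglion holds injured and intact neurons side by side. The adult groups were male rats of 2 months: SNI, contralateral (the uninjured side of SNI-operated rats) and sham (nerve exposed only), with 3 arrays each. The young groups were pups operated at 10 days and collected at 17 days: SNI and contralateral with 2 arrays each, because the authors had removed 1 outlying array from each, and sham with 3. Each array held a pool of ganglia, 6 from 3 adults or 8 from 4 pups, so the spread is between pools, and a p-value says nothing of single animals. Sham and contralateral arrays are called controls here. In such bulk tissue fewer cells of a type and less RNA per cell cannot be told apart.

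A voltage-gated sodium channel consists of 1 alpha subunit, which forms the pore and senses voltage, and of beta subunits, which tune its gating and its place in the membrane. The channels carry the inward current of the action potential. Scn10a (Nav1.8) and Scn11a (Nav1.9) encode the tetrodotoxin-resistant channels of nociceptors, the neurons that sense damaging stimuli. Scn9a (Nav1.7) amplifies small depolarisations in these cells, and Scn1a and Scn8a carry fast current in myelinated neurons and at nodes of Ranvier. Scn3a (Nav1.3) is the channel of embryonic neurons, which is known to return in adult rat sensory neurons after their axons are cut. Scn7a (Nax) is a sodium-sensing relative found in neurons and in Schwann cells.

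The genes lie in clusters. In the RefSeq annotation of the rat (GRCr8), Scn1a, Scn9a and Scn7a follow each other on chromosome 3 with 0 protein-coding genes between neighbours, and Scn3a lies on the same chromosome beside Scn2a. Scn10a and Scn11a lie on chromosome 8 with 1 protein-coding entry between them. Scn3b and Scn4b are on that chromosome too, and Scn8a is on chromosome 7. Promoter sequence, 250 bases before and 50 bases from the annotated start on, was held for 7 of the 9 genes and not for Scn1a and Scn3b. The promoters of Scn3a, the member that differed most after adult SNI, and of the nociceptor pair Scn10a and Scn11a, which were low together, are printed below 5′ to 3′ in the direction of the gene. They lie at chr3:70666149-70666448, chr8:128340249-128340548 and chr8:128444669-128444968 of GRCr8, all on the minus strand, and are credited to RefSeq. The single capital after lower case marks the annotated start (base 251), and the run of 7 capitals in Scn3a marks a match to a loose form of the AP-1 motif (TGANTCA).
Scn3a: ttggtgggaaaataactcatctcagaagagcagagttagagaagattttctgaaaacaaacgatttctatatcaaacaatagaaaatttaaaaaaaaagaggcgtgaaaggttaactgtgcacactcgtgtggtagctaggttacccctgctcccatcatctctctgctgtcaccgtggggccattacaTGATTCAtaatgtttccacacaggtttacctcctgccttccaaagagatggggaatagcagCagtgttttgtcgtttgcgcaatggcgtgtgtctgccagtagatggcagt
Scn10a: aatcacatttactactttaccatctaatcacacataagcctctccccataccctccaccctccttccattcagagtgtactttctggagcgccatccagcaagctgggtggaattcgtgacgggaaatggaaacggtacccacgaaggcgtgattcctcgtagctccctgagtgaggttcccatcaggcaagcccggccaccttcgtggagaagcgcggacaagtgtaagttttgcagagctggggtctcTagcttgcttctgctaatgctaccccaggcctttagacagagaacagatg
Scn11a: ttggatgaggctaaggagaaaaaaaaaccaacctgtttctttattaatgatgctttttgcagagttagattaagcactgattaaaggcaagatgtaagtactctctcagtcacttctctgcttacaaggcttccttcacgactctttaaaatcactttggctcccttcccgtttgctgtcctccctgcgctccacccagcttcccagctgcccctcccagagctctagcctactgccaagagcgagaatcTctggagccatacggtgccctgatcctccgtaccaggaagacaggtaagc

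A set of 4 motifs was searched on both strands of these windows. The AP-1 motif, which factors of the Fos, Jun and Atf families bind, was searched in the loose form TGANTCA, with any base as N. This form was found in 1 of the 7 members, at -61 to -55 from the start of Scn3a, and in 7.33% of all 33469 promoters. The match in Scn3a is TGATTCA, with T in the middle, where the strict AP-1 motif has C or G. The cyclic AMP response element TGACGTCA and the TATA box TATAAA were in 0 of the 7, against 1.83% and 14.2% of all promoters. The GC box GGGCGG was found 7 times in Scn8a and 1 time in Scn7a, against 33.1% of all promoters with at least 1. None of these motifs overlapped another in the 7 windows. The promoter of Scn8a held 84.7% G and C, and those of Scn3a, Scn11a and Scn10a held 43.3%, 48.3% and 52.3%. These are matches of letters and not sites of binding.

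Some arrays stood apart. The mean log2 value of 10 pan-neuronal genes lay between 12.17 and 12.65 in 15 arrays, and the mean of 8 nociceptor genes between 10.81 and 11.31, so markers of the labelled ganglion were present. Young SNI replicate 2 had lower means, 11.92 and 9.77, for these lists, and a mean of 11.88 for 6 genes of central nervous tissue, a mean that reached at most 3.13 in the other arrays. Single genes of that list read higher there, up to 7.77 for Aqp4 in young contralateral replicate 1. In that array Mobp, Slc12a5 and Gad1 of the same list read 2.68, 1.82 and 2.17, and the source of its Aqp4 was not tested. The mean of 6 skeletal muscle genes ran from 4.31 to 13.51 over the arrays and was highest in young contralateral replicate 1. The array medians were alike, between 5.13 and 5.47. Adult SNI was marked by 11 axon injury genes (among them Atf3, Gal, Npy and Sox11), whose mean was 11.18 to 11.40 in adult SNI and 6.98 to 8.01 in adult controls. In that comparison 9 of the 11 rose past the threshold. The mean of 8 macrophage genes was also higher in adult SNI, at 6.64 to 7.07 against 4.95 to 5.84 in adult controls, with 3 of the 8 past the threshold, and its part in the values of the channels was not tested.

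Values are log2 GC-RMA, a scale on which 1 unit is a doubling, and a probe set's value is set only against its own value in other arrays. Scn7a ranged from 13.19 to 14.08 over the 16 arrays, and Scn8a from 3.62 to 5.73, below the array medians in all arrays except young contralateral replicate 1. Scn3a covered the widest range of the members, 4.14 to 8.24. Scn1a, Scn9a, Scn10a, Scn11a, Scn3b and Scn4b stayed above 8 in every array. All tests are from 1 limma fit of the 16 arrays with 6 group means, with p adjusted by Benjamini-Hochberg over the 31042 probe sets and a threshold of 0.05.

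**Figure D1:**
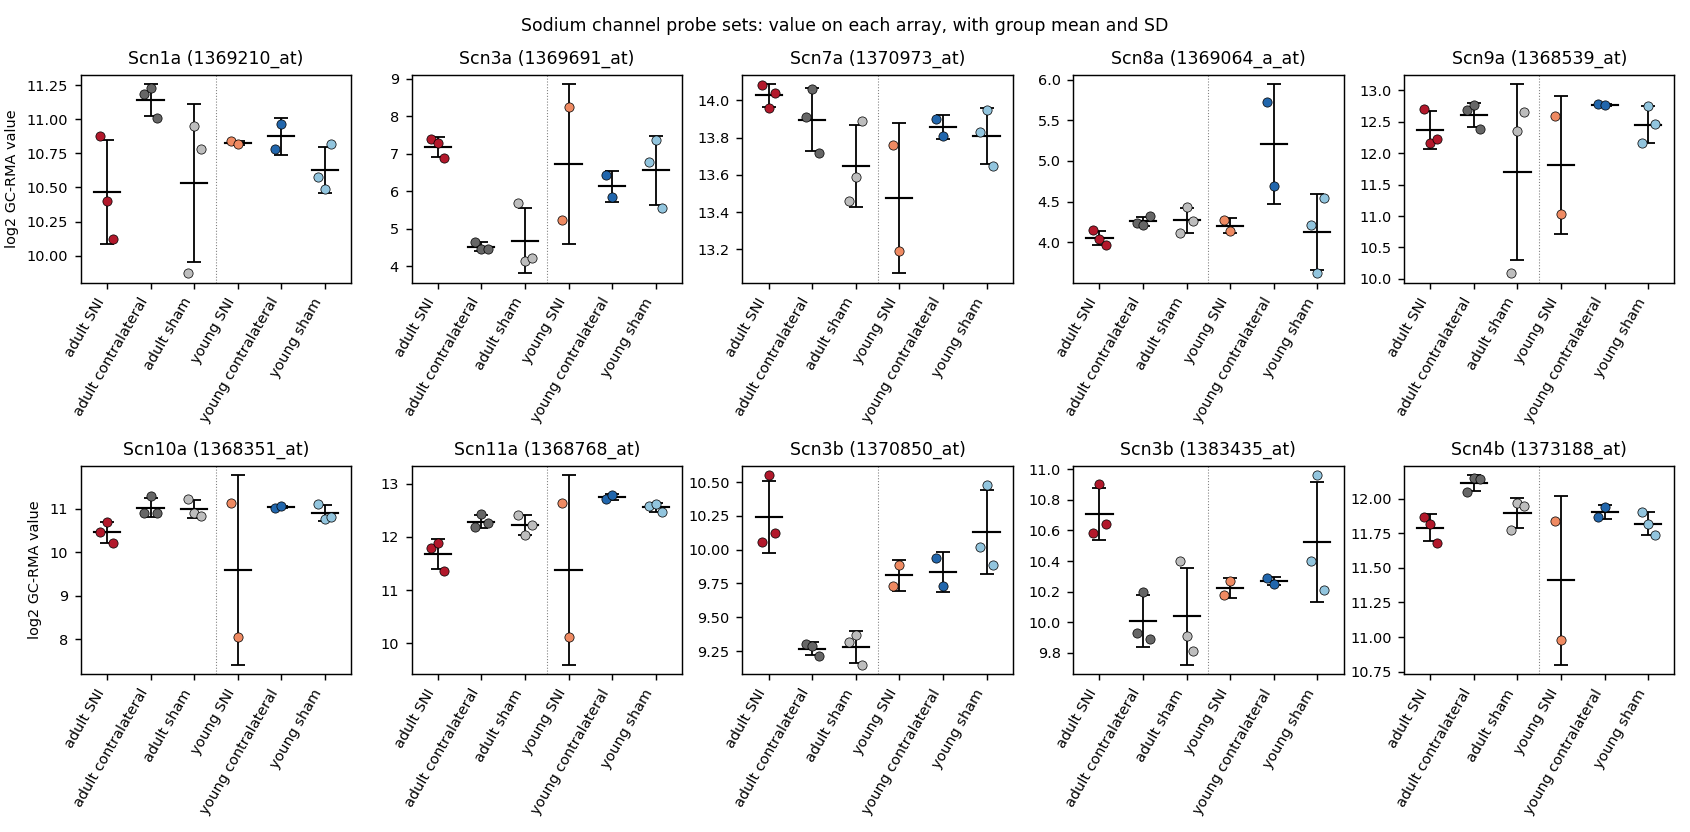
Each panel plots the log2 GC-RMA value (vertical axis, its own scale) of 1 sodium channel probe set on each of the 16 arrays, as points by group, with the group mean as a bar and its SD as whiskers. The 3 adult SNI arrays lie above all 6 adult controls for Scn3a and both Scn3b probe sets and below them for Scn10a and Scn11a, and young SNI replicate 2 is the lowest point for Scn10a, Scn11a, Scn4b and Scn7a.

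Against the mean of both adult controls, 1 of the 10 channel probe sets rose in adult SNI, Scn3b (1370850_at), against 1.1% of all probe sets called higher, and 0 fell, against 0.177% called lower. Against adult contralateral alone it was again this 1, with 0.921% of all probe sets called higher, and against adult sham alone also this 1, with 0.445%. These comparisons share the SNI arrays and are not independent. The median difference of the 10 member probe sets, Scn3b counted with both of its own, was 0.00083 against the mean of controls. Of the 10, 5 lay above 0 and 5 below, and the median of all probe sets was -0.028. With 1 probe set per gene, that with the highest mean, the median of the 9 genes was -0.21. In 3 of the 10 member probe sets (Scn3a and both of Scn3b) every adult SNI array lay above all 6 adult controls, against 3.17% of all probe sets, and in 2 (Scn10a and Scn11a) every one lay below, against 2.58%.

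Scn3b encodes the beta3 subunit, a partner of Nav1.3 and other alpha subunits that shifts their inactivation. Its probe set 1370850_at read 10.06, 10.55 and 10.12 in adult SNI, 9.30, 9.29 and 9.21 in adult contralateral and 9.32, 9.37 and 9.15 in adult sham. Every injured pool was above every control pool, and both kinds of control were alike. The difference from the mean of controls was 0.97 ± 0.14 (SE) on the log2 scale, a 1.96-fold rise (limma, adjusted p = 0.0058), and this call held with any single array left out. It was 0.98 against contralateral (adjusted p = 0.0161) and 0.96 against sham (adjusted p = 0.0244). Against contralateral alone it missed the threshold without any 1 of the contralateral arrays or without SNI replicate 2 (limma, adjusted p up to 0.0760). Against sham alone it missed it without any 1 of the sham arrays or without SNI replicate 2 or 3 (adjusted p up to 0.0899). The differences then lay between 0.81 and 1.03. With the adult arrays fitted on their own and 1 left out, it missed against contralateral in 3 of 9 fits (limma, adjusted p up to 0.100). Against sham it missed in 7 of 9 such fits (adjusted p up to 0.0774), and against the mean of controls it passed in all 9.

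The second Scn3b probe set, 1383435_at, gave 10.58, 10.90 and 10.64 in adult SNI, 9.93, 10.20 and 9.89 in adult contralateral and 10.40, 9.91 and 9.81 in adult sham. It too was higher in each SNI array, but adult sham replicate 1 came close. Its difference from the mean of controls was 0.68 ± 0.17 (SE), or 1.61-fold, and did not pass (limma, adjusted p = 0.0929). The adult SNI and contralateral arrays of 1 number deviated together, though the labels do not state that they are pairs. With same-numbered arrays taken as a random block at both ages, this probe set passed (adjusted p = 0.0235). Over the 16 arrays the 2 probe sets had a Pearson r of 0.89.

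Scn3a showed the largest difference of the members in adult SNI. Its probe set (1369691_at) read 7.39, 7.30 and 6.89 in adult SNI, 4.66, 4.46 and 4.47 in adult contralateral and 5.68, 4.14 and 4.23 in adult sham. The groups did not overlap, and 5 of the 6 controls lay below 5. Adult SNI exceeded the mean of controls by 2.59 ± 0.60 (SE), or 6.01-fold, with a limma adjusted p of 0.0721. The differences were 2.66 against contralateral (adjusted p = 0.131) and 2.51 against sham (adjusted p = 0.234).

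The call for Scn3a depended on whether the young SNI arrays, at 5.23 and 8.24, were part of the fit. Without either 1 of them the adult values were the same and the adjusted p against the mean of controls was 0.0123. With the adult arrays fitted on their own Scn3a passed against the mean of controls, contralateral and sham (limma adjusted p = 0.0141, 0.0263 and 0.0432), as 1 of 2 member probe sets called there, with 1.24%, 1.04% and 0.705% of all probe sets called higher. Among the adult arrays alone it missed the threshold against the mean of controls without contralateral replicate 3 or without SNI replicate 2 (limma, adjusted p = 0.0542 and 0.0684). Against contralateral it missed it in 5 of 9 such fits, those without any 1 contralateral array or without SNI replicate 2 or 3 (adjusted p up to 0.124). Against sham it missed it in 8 of 9, all but that without sham replicate 1 (adjusted p up to 0.148). With SNI and contralateral arrays of 1 number as a random block it passed against the mean of controls (adjusted p = 0.036) and contralateral (adjusted p = 0.0252).

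In young rats Scn3a was not low in the controls. It read 5.23 and 8.24 in young SNI, 6.43 and 5.85 in young contralateral and 6.78, 7.36 and 5.56 in young sham. The 8.24 came from replicate 2, the array with a mean of 11.88 for the central nervous tissue genes, whose part in this value was not tested. The 2 young SNI arrays lay on either side of all 5 young controls. Of the young controls, 4 lay above all 6 adult controls and 1 lay below the highest of them. The mean difference of young SNI from its controls, 0.38 ± 0.71 (SE), had a 95% confidence interval from -1.18 to 1.95, and without young SNI replicate 2 the difference was -1.12.

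Scn3b was not low in the young controls either. Probe set 1370850_at read 9.73 and 9.89 in young SNI, 9.94 and 9.73 in young contralateral and 10.02, 10.48 and 9.89 in young sham. These 7 arrays overlapped each other, and all were above the 6 adult controls. The difference of young SNI from the mean of its controls was -0.17 ± 0.16 (SE; limma, adjusted p = 0.989). The second probe set read 10.18 and 10.27 in young SNI, 10.29 and 10.25 in young contralateral and 10.40, 10.96 and 10.21 in young sham, with a difference of -0.17 ± 0.20 (SE). In order of group means 1370850_at stood highest in adult SNI (10.24 ± 0.27, SD, n = 3), then young sham (10.13 ± 0.31, n = 3), young contralateral (9.84, n = 2), young SNI (9.81, n = 2), adult sham (9.28 ± 0.12, n = 3) and adult contralateral (9.27 ± 0.05, n = 3). The arrays of neighbouring groups in this order overlapped, except that the young SNI and adult sham arrays did not.

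The axon injury genes were also spread widely among young arrays without SNI. Their mean was 9.92, 10.89 and 8.45 in young sham replicates 1, 2 and 3 and 9.45 and 6.88 in young contralateral replicates 1 and 2. Young sham replicate 2, the control with the highest mean, also had the highest Scn3a (7.36) and Scn3b (10.48 and 10.96) of all controls. Young contralateral replicate 2 had the lowest mean of all arrays (6.88). It read 5.85 for Scn3a and 9.73 and 10.25 for Scn3b. Young SNI replicate 1, at 8.53, was below 3 of the 5 young controls in this mean. Young SNI replicate 2 stood at 10.37, with 8.24 for Scn3a and 9.89 and 10.27 for Scn3b. Whether the levels of these genes bear on the differences of Scn3a and Scn3b between groups was not tested.

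**Figure D2:**
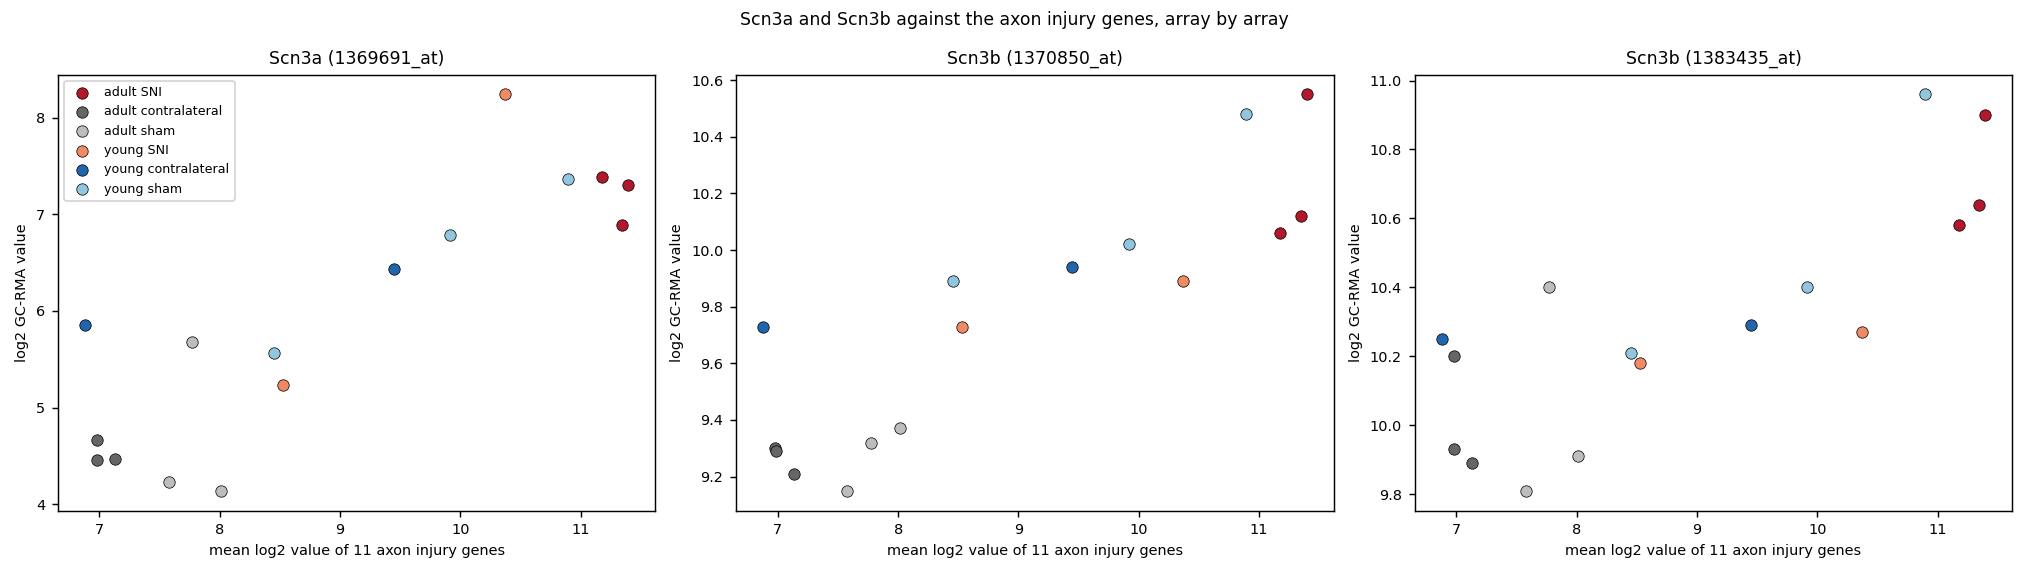
Each point is 1 array, with the mean log2 value of 11 axon injury genes on the horizontal axis and the log2 GC-RMA value of Scn3a (left) or of the Scn3b probe sets 1370850_at (middle) and 1383435_at (right) on the vertical axis, coloured by group. The adult SNI arrays lie at 11.18 to 11.40 on the horizontal axis and the adult controls at 6.98 to 8.01, while the young arrays of all groups spread from 6.88 to 10.89.

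Both nociceptor channels read lower in every adult SNI array than in any adult control. Scn10a (1368351_at) read 10.46, 10.69 and 10.22 in adult SNI, 10.90, 11.28 and 10.89 in adult contralateral and 11.22, 10.91 and 10.83 in adult sham. Scn11a (1368768_at) read 11.80, 11.89 and 11.36 in adult SNI, 12.18, 12.43 and 12.26 in adult contralateral and 12.42, 12.03 and 12.22 in adult sham. In both genes each injured pool lay below all 6 controls, with SNI replicate 3 the lowest.

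Their differences from the mean of adult controls were -0.55 ± 0.48 (SE) for Scn10a and -0.57 ± 0.39 (SE) for Scn11a, or 0.684-fold and 0.672-fold. Neither passed in the fit of all arrays (limma, adjusted p = 0.803 and 0.755), or with the adult arrays on their own (0.165 and 0.130). Without young SNI replicate 2, or without replicate 1, Scn11a passed (adjusted p = 0.0425) at the same difference, and Scn10a did not. The 8 measured nociceptor genes, none of them a sodium channel, had a median difference of -0.16 from the mean of adult controls in the fit of all arrays. Of these 8, 0 passed in either direction, also at an unadjusted p under 0.05. Scn10a and Scn11a were not under it in that fit either (limma, unadjusted p = 0.273 and 0.172), so this does not set them apart from the list. The spread in that fit includes the young SNI arrays, at 11.13 and 8.06 for Scn10a and 12.64 and 10.12 for Scn11a. With the adult arrays on their own the SE was 0.15 and 0.14 (limma, unadjusted p = 0.0065 and 0.0041). The list was read only in the fit of all arrays, so it cannot be compared there.

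In young SNI both genes were split between the 2 arrays. Scn10a read 11.13 and 8.06 in young SNI, 11.02 and 11.06 in young contralateral and 11.10, 10.76 and 10.81 in young sham. Scn11a read 12.64 and 10.12 in young SNI, 12.71 and 12.79 in young contralateral and 12.58, 12.63 and 12.47 in young sham. Replicate 1 lay above all 5 controls for Scn10a and among the controls for Scn11a, whereas replicate 2 was the lowest of all 16 arrays for both.

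The mean differences from young controls, -1.37 ± 0.57 (SE) for Scn10a and -1.28 ± 0.47 (SE) for Scn11a, did not pass (limma, adjusted p = 0.627 and 0.626). Without replicate 2 the difference of Scn10a was 0.17. Without replicate 1 the differences were -2.905 for Scn10a, -2.535 for Scn11a, -0.8825 for Scn4b and -0.6425 for Scn7a. They rest on the 1 array that also held the high central nervous tissue genes and the low nociceptor genes. Scn2a, the sodium channel of central neurons and no member here, read 7.41 in that array and 2.77 to 3.40 in the other 15.

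**Figure D3:**
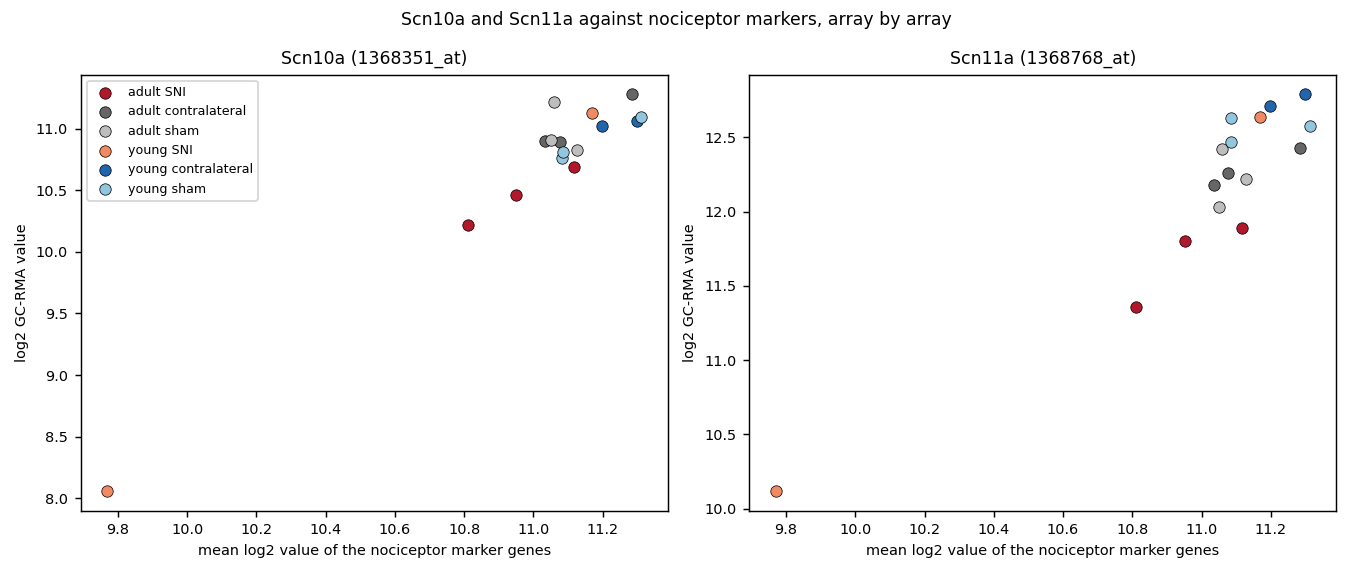
Each point is 1 array, with the mean log2 value of 8 nociceptor genes on the horizontal axis and the log2 GC-RMA value of Scn10a (left) or Scn11a (right) on the vertical axis, coloured by group. Young SNI replicate 2 lies alone at 9.77 on the horizontal axis, with 8.06 for Scn10a and 10.12 for Scn11a, and the other 15 arrays lie between 10.81 and 11.31.

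Scn9a (1368539_at), whose product sets the threshold of nociceptors, read 12.71, 12.17 and 12.22 in adult SNI, 12.68, 12.76 and 12.39 in adult contralateral and 10.09, 12.36 and 12.65 in adult sham. Apart from adult sham replicate 1 the adult groups overlapped. That array decided the sign of the difference from sham, 0.67 ± 0.58 (SE; limma, adjusted p = 0.971), which was -0.14 without it. The same array had the lowest Scn1a of the series (9.87) and the lowest pan-neuronal mean of the adult arrays (12.17), while its nociceptor mean (11.06) lay within the other controls. In young rats Scn9a read 12.59 and 11.03 in SNI, 12.78 and 12.76 in contralateral and 12.16, 12.75 and 12.46 in sham, with replicate 2 of SNI again the lowest of them and a difference of -0.80 ± 0.59 (SE) from the mean of controls.

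Scn1a (1369210_at), a channel of large myelinated neurons, read 10.88, 10.40 and 10.12 in adult SNI, 11.19, 11.23 and 11.01 in adult contralateral and 9.87, 10.95 and 10.78 in adult sham. Each SNI array was below every contralateral array, and SNI overlapped with sham. The share of all probe sets that separate so from 1 control group was not counted, here or for the genes that follow. The differences were -0.68 ± 0.25 (SE) from contralateral (limma, adjusted p = 0.363) and -0.07 ± 0.25 from sham (adjusted p = 1). In young rats all 7 arrays lay between 10.49 and 10.97, young SNI replicate 2 included.

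Scn7a (1370973_at) read 14.08, 13.96 and 14.04 in adult SNI, 13.91, 14.06 and 13.72 in adult contralateral and 13.46, 13.59 and 13.89 in adult sham. The adult SNI arrays lay above all sham arrays and overlapped contralateral, with a difference of 0.25 ± 0.13 (SE) from the mean of both (limma, adjusted p = 0.601). Young SNI, at 13.76 and 13.19, stood beside 13.90 and 13.81 in young contralateral and 13.83, 13.95 and 13.65 in young sham, with replicate 2 below all of them.

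Scn4b (1373188_at) encodes the beta4 subunit of large myelinated neurons, known for its part in resurgent current. It read 11.87, 11.82 and 11.68 in adult SNI, 12.05, 12.15 and 12.14 in adult contralateral and 11.77, 11.97 and 11.95 in adult sham. Each SNI array was below every contralateral array, and SNI overlapped with sham. The difference from contralateral was -0.32 ± 0.16 (SE; limma, adjusted p = 0.589), and with adult sham replicate 1 and young SNI replicate 2 both left out it passed at the same size (adjusted p = 0.0442). Young SNI read 11.84 and 10.98, against 11.74 to 11.94 in the 5 young controls.

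Scn8a (1369064_a_at) read 4.15, 4.04 and 3.97 in adult SNI, 4.24, 4.21 and 4.32 in adult contralateral and 4.12, 4.43 and 4.26 in adult sham, and 4.27 and 4.14 in young SNI. Its adult SNI arrays lay below every adult contralateral array and overlapped with sham, with a difference of -0.20 ± 0.25 (SE) from contralateral (limma, adjusted p = 0.746). Scn8a read 5.73 and 4.69 in young contralateral and 4.21, 3.62 and 4.55 in young sham, which did not overlap. The difference of 1.08 ± 0.28 (SE) did not pass (limma, adjusted p = 1), and 0 of all probe sets did in this comparison by limma, with 2.25% of all at an unadjusted p under 0.05, Scn8a among them as the 1 member. Between adult contralateral and adult sham 0 of all probe sets passed as well, with 2.01% and 1 member (Scn1a, by 0.61) at an unadjusted p under 0.05. The skeletal muscle mean was 13.51 and 11.30 in the 2 young contralateral arrays and 8.20, 10.65 and 7.56 in young sham, and its part in the value of Scn8a was not tested. Scn4a, the sodium channel of skeletal muscle, read 2.08 to 2.24 in all 16 arrays, near the low end of the scale. It stayed there also where the muscle mean was 13.51, so its value cannot tell how much muscle an array held.

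In young SNI 0 of the 10 member probe sets were called against the mean of controls, sham or contralateral, against 0.0226%, 0.0161% and 0.00966% of all probe sets. At an unadjusted p under 0.05 there were 4, 2 and 3 members, against 7.86%, 5.91% and 5.94% of all. The 4 against the mean of controls were Scn7a, Scn10a, Scn11a and Scn4b. In each of these, young SNI replicate 2, the array with high central nervous tissue genes, was the lowest array. Young SNI replicate 1 lay within or above the range of the 5 young controls, so the 4 rest on 1 array. In 0 members did both young SNI arrays lie above, or below, all 5 young controls, against 1.08% and 1.92% of all probe sets. The difference between the adult and the young response was tested directly, as the adult difference less the young difference, and 0 members passed, against 0.0966% of all probe sets. At an unadjusted p under 0.05 there were 4 probe sets of 3 genes (Scn3a, Scn7a and both of Scn3b), against 8% of all. The difference in response was 1.14 ± 0.21 (SE) for Scn3b 1370850_at, with an interval from 0.68 to 1.61 (limma, adjusted p = 0.0946), and 0.86 ± 0.26 for the second Scn3b probe set (adjusted p = 0.446). With SNI and contralateral arrays of 1 number as a random block, the first of these passed (adjusted p = 0.0285), as it did without young sham replicate 3 (adjusted p = 0.0470). Without young SNI replicate 1 it was 1.06, with replicate 2 alone as young SNI. For Scn3a the difference in response was 2.21 ± 0.93 (SE; adjusted p = 0.602). It was 3.96 with adult sham replicate 1 and young SNI replicate 2 left out. That choice was made after seeing the data, and it left 1 young SNI array, at 5.23.

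**Figure D4:**
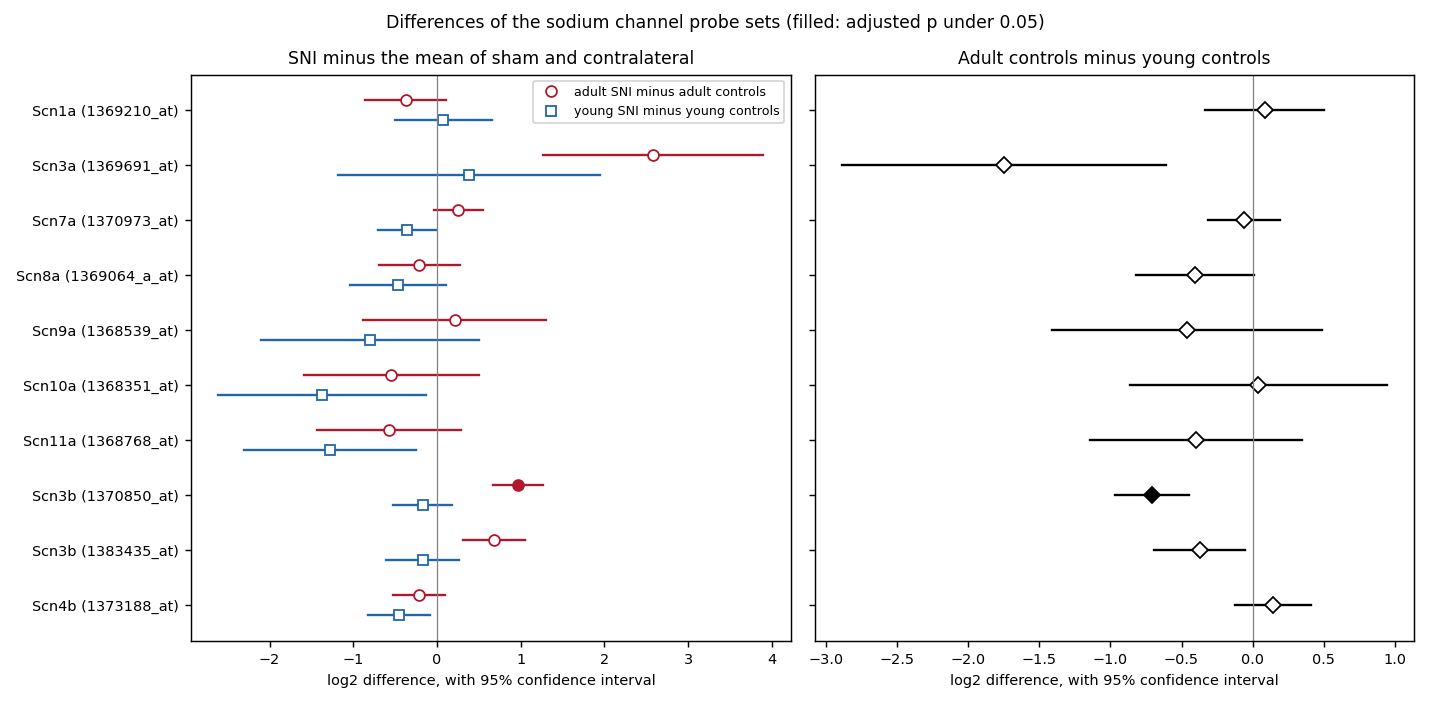
The left panel gives the log2 difference of SNI from the mean of sham and contralateral in adults (circles) and young rats (squares) for each sodium channel probe set, the right panel the difference of adult controls from young controls (diamonds), each with its 95% confidence interval. Filled symbols passed an adjusted p of 0.05. Only Scn3b 1370850_at is filled, at 0.97 in adult SNI and at -0.71 between the ages.

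Scn3b also differed with age among the control arrays. Of the 10 channel probe sets 1 was lower in adult than in young controls, Scn3b 1370850_at, against 2.54% of all probe sets called lower and 1.82% called higher. Its difference was -0.71 ± 0.12 (SE), or 0.612-fold (limma, adjusted p = 0.0099), and without young contralateral replicate 1 it was -0.66 (adjusted p = 0.0606). In sham alone it was -0.85 (adjusted p = 0.0414), the 1 member called there against 0.393% of all probe sets called lower, and with the random block of SNI and contralateral arrays 0 members passed. Between adult and young contralateral, and between adult and young SNI, 0 members passed, against 0.177% and 2.64% of all probe sets in either direction. At an unadjusted p under 0.05 there were 2 and 3 member probe sets, with both of Scn3b among the 3, against 9.52% and 19.4% of all. The axon injury genes had a mean of 6.98 to 8.01 in the adult controls and 6.88 to 10.89 in the young controls. Young contralateral replicate 2, at 6.88, lay below all adult controls in this mean and above them all in Scn3b 1370850_at (9.73). Sprr1a, one of the axon injury genes, read 2.22 to 2.80 in adult controls and 2.22 to 9.92 in young controls, highest in young sham replicate 2. Of the 11 genes 1 was lower in adult controls past the threshold and 6 were at an unadjusted p under 0.05, with a median difference of -0.95, and their part in the differences between the ages was not tested.

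The second Scn3b probe set differed by -0.37 ± 0.15 and Scn3a by -1.75 ± 0.52 (SE) between adult and young controls, and neither passed (limma, adjusted p = 0.198 and 0.0878). Without either 1 of the young SNI arrays Scn3a passed with the same difference (adjusted p = 0.0192). Scn11a read lower in each of the 6 adult controls (12.03 to 12.43) than in each of the 5 young controls (12.47 to 12.79), as 1 of 2 members whose ages did not overlap in this direction, against 3.05% of all probe sets. In 0 members did every adult control lie above every young control, against 3.54% of all probe sets. The difference of Scn11a was -0.40 ± 0.34 (SE; adjusted p = 0.56), and without either 1 of the young SNI arrays it passed (adjusted p = 0.0494). Scn10a, with 10.83 to 11.28 in adult controls and 10.76 to 11.10 in young controls, overlapped.

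Of 7 listed symbols of other subunits and relatives of these channels, 4 were on the array with 5 probe sets. Scn2b, which encodes the beta2 subunit, was lower in adult than in young controls with both its probe sets, at -1.29 ± 0.22 and -0.97 ± 0.23 (SE; limma, adjusted p = 0.0114 and 0.0384). Its probe set 1369311_at read 2.26 to 2.33 in adult controls and 2.27 to 4.64 in young controls, so the ages overlapped near the low end of the scale. Its probe set 1396405_at read 8.65 to 9.27 in adult contralateral, 7.59 to 9.01 in adult sham and 9.40 to 9.87 in the young controls, and the ages did not overlap. Scn4b, its neighbour on the chromosome, differed by 0.14 ± 0.12. Nalcn, the sodium leak channel, stayed between 9.70 and 10.09 in all arrays. None of these 5 probe sets passed in adult SNI.

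Proteins that anchor, traffic or modulate sodium channels were also examined. Of 16 such genes 15 were measured, and 0 rose or fell past the threshold in adult SNI against the mean of controls, with a median of -0.07 and 1 at an unadjusted p under 0.05. Fgf12, which encodes a channel-binding factor of the fibroblast growth factor family, had the largest of these differences and is named after its value was seen, at -0.54 ± 0.17 (SE; limma, adjusted p = 0.209). Between adult and young controls 3 of the 15 were lower and 0 higher, against 2.54% and 1.82% of all probe sets. They were Nedd4, a ubiquitin ligase known to act on sodium channels, at -0.67 (adjusted p = 0.0125), Nrcam, an adhesion molecule of the node of Ranvier, at -0.37 (adjusted p = 0.027), and Pdzd2, which binds Nav1.8 (adjusted p = 0.0377). Pdzd2 read 2.58 to 2.68 in adult controls and 2.60 to 3.57 in young controls, near the low end of the scale, and the ages overlapped.

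The genes with the most similar pattern were read for each member as the highest Pearson r over the 16 arrays, given also over the 15 without young SNI replicate 2. These are descriptions over arrays that share groups and tissue makeup. For Scn3a they were Ptpro (r = 0.96 and 0.94), a receptor tyrosine phosphatase, and Akap7 (0.94 and 0.92), an anchor of protein kinase A. For Scn3b, by its probe set with the higher mean (1383435_at), they were Sema4f (0.93 and 0.94), a semaphorin, and Dusp26 (0.92 and 0.92), a phosphatase. Scn3a and Scn3b themselves had an r of 0.80 and 0.92.

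For Scn10a they were Ppp1r1c (0.99 and 0.92), an inhibitor of protein phosphatase, and Avil (0.99 and 0.90), the sensory neuron protein advillin. Scn11a was most like Gyg1 (0.97 and 0.92) and Eepd1 (0.96 and 0.88), and its r with Scn10a was 0.93 and 0.80. Scn1a was most like Dipk2a (0.93 and 0.93) and Cacna2d3 (0.91 and 0.93), an auxiliary subunit of calcium channels. Scn9a followed Usp46 (0.96 and 0.96) and Ptpn3 (0.96 and 0.95). Scn8a was most like Fbxo42 (0.95 and 0.95) and Synm (0.94 and 0.94), which encodes an intermediate filament protein of muscle. For Scn7a the 2 nearest were Mmgt1 (0.94 and 0.89) and Dusp3 (0.92 and 0.85), and for Scn4b they were Mindy3 (0.97 and 0.91) and C2h3orf80 (0.96 and 0.85).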

How the data were processed

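Per the authors, the scanned Affymetrix arrays were background-adjusted and normalised by GC-RMA, which gave the deposited log2 values of 31099 probe sets, rounded to 2 decimals. After 57 control probe sets were left out, 31042 were tested. A single gene symbol was listed for 20826, several for 436 and none for 9780. Arrays hold no reads, so the number of pools and the background limit the precision, and no detection calls were used. Versions of the authors' R, GC-RMA and limma were not given in the sources used here.

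Differences were tested with limma 3.58.1 in R 4.3.3, with 6 group means, empirical Bayes variances (prior degrees of freedom 1.24, residual 10) and Benjamini-Hochberg adjustment over all probe sets of a comparison, at a threshold of 0.05. The fit was checked on simulated data with independent normal noise, of equal spread over the arrays for each probe set. The simulated data held no outlying array and no pairs, so the check does not cover these features of the real arrays. All probe sets of the members are named, with the 2 genes nearest to each member by Pearson r, and of the lists of other subunits and partners the genes that passed in adult SNI or between ages. Fgf12, Scn2a, Scn4a and Nalcn were named after their values were seen. A list gene is represented by its probe set with the highest mean. The members and gene lists were chosen with earlier results of these data known. As alternatives the ages were fitted separately, the variance prior was given a trend or made robust, low values were filtered out (18540 probe sets above 4 on 2 or more arrays stayed), arrays were weighted or quantile-normalised again, and replicate blocks, adjustment over all comparisons together and leaving out each array were tried. Same-numbered adult SNI and contralateral arrays, both sides of SNI-operated rats, deviated together (r = 0.45, 0.44 and 0.36), so these numbers were taken as pairs and fitted as a random block with a consensus correlation of 0.47. The labels do not say that same-numbered arrays hold ganglia of the same rats. The pairing was taken from the data that the block was then fitted to, and results with the block rest on it. Sham arrays shared only a number. In young SNI and contralateral the r was 0.15 for same-numbered and -0.15 for other pairs. With 2 arrays per group these can differ only in sign, so they say little of pairing.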

Additional observations from a re-analysis of the deposited data

How the results depend on the processing

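The number of member probe sets called depended on the fit. In adult SNI 1 was called against sham, contralateral and the mean of controls. Against sham there were 2 with the adult arrays on their own or with array weights, and still 1 with adult sham replicate 1 and young SNI replicate 2 both left out (chosen after seeing the data), then Scn3a in place of Scn3b. Against contralateral there were 2 with the adult arrays on their own, the low-value filter or array weights, and 3 with the random replicate block or with those 2 arrays left out. Against the mean of controls there were 2 with the adult arrays on their own, the variance trend or the filter, and 3 with array weights, the random replicate block or those 2 arrays left out. The members gained were Scn3a, the second Scn3b probe set or Scn4b. The difference in response between ages, with 0 called, had 1 with the random replicate block or with adjustment over all comparisons together. Leaving out those 2 arrays left 1 young SNI array for that comparison. Between adult and young controls, with 1 called, there were 2 with the filter and 3 with array weights or those 2 arrays left out. Between adult and young sham, with 1 called, there were 0 with the random replicate block. The replicate number as a fixed block moved no count by over 1.5 times, and the random replicate block changed no call of a member other than those given.

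With single arrays left out, among all arrays or the adult arrays on their own, the counts ranged from 0 to 2 against adult sham and contralateral, 1 to 3 against the mean of adult controls, 0 to 4 in each young SNI comparison and in adult against young SNI, 0 to 5 for the difference in response, 0 to 3 between adult and young controls, and 0 to 1 between the sham groups, between the contralateral groups and between young contralateral and young sham. All counts of 4 or 5 came without young SNI replicate 1, where replicate 2 alone stood for its group and was assumed to vary like the others.

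Differences that changed sign had not passed the threshold. Scn1a ranged from -0.40 to 0.14 against adult sham (0.14, 0.057 and 0.107 without sham replicate 2, sham replicate 3 and SNI replicate 3) and from -0.018 to 0.25 between adult and young controls, and Scn10a from -0.024 to 0.093 between the same controls. Scn9a ranged from -0.14 to 1.14 against adult sham and from -0.19 to 0.45 against the mean of adult controls, the lowest without adult sham replicate 1. In young SNI against the mean of controls Scn3a ranged from -1.12 to 1.89 and Scn10a from -2.91 to 0.17. The difference in response ranged from -0.0067 to 0.51 for Scn8a, -0.71 to 2.36 for Scn10a, -0.56 to 1.96 for Scn11a and -0.19 to 0.67 for Scn4b. With both named arrays left out these were -0.14 and -0.19 for Scn9a in adult SNI, -1.12 and 0.17 for Scn3a and Scn10a in young SNI, -0.17, -0.66, -0.51 and -0.22 for Scn9a, Scn10a, Scn11a and Scn4b in the difference in response, and -0.018 for Scn10a between controls. Quantile normalisation gave -0.063 for Scn7a against adult contralateral and 0.023 between controls. With sham as the only control the difference in response of Scn8a was -0.30. The causes of these changes were not tested beyond the arrays named. The low number of pools, 2 in young SNI and contralateral, limits every comparison of the young groups, and Scn8a, below the array medians in 15 of 16 arrays, may be limited by background.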
